A study of Mus musculus with 14 samples.

Results

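The genes described here are 9 genes of the megakaryocyte surface and granules, Pf4, Gp1bb, Gp9, Itga2b, Treml1, Selp, Cd9, Plek and Rab27b (in the tables' capitals PF4, GP1BB, GP9, ITGA2B, TREML1, SELP, CD9, PLEK and RAB27B). They were taken by name from the 22842 genes that both count tables list, and all 9 were found. They were read over the barcodes with at least 500 genes and 10000 counts, by day and by marker-gated lineage, where the gate uses none of the 9. The series traced adult blood stem cells and their progeny in mice with an inducible Tom reporter, and sequenced single Lin- Tom+ cells (reporter-positive cells without markers of mature blood lineages). Day 3 was sampled in mouse m4539 (2 plates), day 10 in mouse m4533 (3 plates), and day 17 in 3 mice, m4528 on 4 plates and m605 and m606 on 2 each, with a further day 17 plate of m605 and m606 cells mixed. Every sample has the same label, Lin- Tom+, so all cells carry the reporter and no unlabelled control was compared. The labels name no driver of the reporter, no inducing agent, no age and no strain, and do not state what happened at day 0. Days 3 and 10 had 1 mouse each, so no replicate error exists at those days.

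Megakaryocytes are the large bone marrow cells that shed platelets. As they mature they place adhesion receptors on their surface, among them the von Willebrand factor receptor and the fibrinogen integrin, and they fill granules with proteins that platelets release at a wound. Part of this programme is also known in blood stem cells, which share several surface proteins with the megakaryocyte line.

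The 1010 kept cells comprised 190 of m4539, 107 of m4533, 288 of m4528, 143 of m605, 189 of m606 and 93 of the mixed plate. The median cell held between 117894 (m606) and 286917 (m4533) counts. Mouse m4528 stood apart from the other 4 in sex-linked genes, with 0.156 CPM (counts of a gene scaled to a common total of counts) of Xist against 181 to 1243 CPM, and 55.3 CPM of the Y-linked gene Ddx3y against 0.0999 to 0.236 CPM. Plate 8 of m4528 held no megakaryocyte-gated cell among 51, while the other 13 plates held 4 to 15 each. All 96 well barcodes occur on more than 1 plate, so cells were told apart by plate and barcode together. A cell was gated to the lineage with the most markers at over 10 counts. The lists held 12 megakaryocyte, 13 erythroid, 11 neutrophil, 9 monocyte and 7 basophil or mast cell genes. A cell whose stem markers outnumbered those of every lineage was gated as stem instead, within limits given with the processing.

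In the 5 mice the gate gave 372 stem-gated and 94 megakaryocyte-gated cells. In the order m4539, m4533, m4528, m605 and m606 these were 164, 66, 87, 16 and 39 stem-gated and 15, 18, 24, 12 and 25 megakaryocyte-gated cells. The gate markers define the class, so their shares describe what it holds and are no check of the label. Cavin2 was present (over 10 counts) in 93.6% of megakaryocyte-gated cells, Lat in 80.9%, Nrgn in 51.1%, F2rl2 in 46.8% and Ppbp in 21.3%. Gp5 and Itgb3 were present in only 18.1% each, Gp1ba in 10.6%, Alox12 in 7.45% and Mpig6b in 3.19%. Gp6 and Tubb1, markers of late megakaryocytes, were present in no cell of the series. Cavin2 and Lat were also present in 19.6% and 19.9% of stem-gated cells. The megakaryocyte-gated cells kept a median of 2 to 3 of the 11 stem markers, depending on the mouse. The gate therefore marks a range and not a cell type: of 109 megakaryocyte-gated cells (mixed plate included), 71 remained when 1 more marker and 1 more marker of lead were asked for.

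The 8 of 9 genes with an entry in the RefSeq promoter table (GRCm38.p6) were searched in the 250 bases before the start for letters bound by 3 families of blood transcription factors, on both strands. For the GATA family the letters were AGATAA. For the ETS family they were AGGAAG, and for the RUNX family TGTGGT. No promoter of the 8 held the GATA letters, which 9.99% of 32851 promoters of that length hold. The ETS letters were in 5 of the 8 (Pf4, Gp9, Itga2b, Selp and Cd9) against 29.5% of all promoters, and the RUNX letters in 1 of the 8 (Gp9) against 14.05%. A match is a description of the letters and not a binding site. Only these exact letters were searched for, so the lack of a match does not show that a promoter has no site for a family. Pf4, Gp9 and Itga2b are shown because they hold matches, in capitals, and Gp1bb because it holds none, although it rose in the comparison with stem-gated cells, as Pf4 and Itga2b did. On the reverse strand the ETS letters read CTTCCT and the RUNX letters ACCACA. Each line runs 5′ to 3′ along the gene's strand and ends at the base before the RefSeq start.
Pf4, chr5:90772185-90772434, plus strand: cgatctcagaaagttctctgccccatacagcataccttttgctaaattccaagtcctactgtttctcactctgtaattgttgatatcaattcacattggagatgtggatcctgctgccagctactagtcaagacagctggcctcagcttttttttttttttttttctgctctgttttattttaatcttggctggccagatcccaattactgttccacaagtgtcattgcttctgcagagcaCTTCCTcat
Gp9, chr6:87777820-87778069, plus strand: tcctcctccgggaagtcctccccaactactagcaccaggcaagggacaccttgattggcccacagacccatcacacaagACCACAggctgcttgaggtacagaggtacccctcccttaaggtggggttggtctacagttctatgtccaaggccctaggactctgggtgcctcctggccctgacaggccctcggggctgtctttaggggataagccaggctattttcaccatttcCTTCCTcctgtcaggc
Itga2b, chr11:102469884-102470133, minus strand: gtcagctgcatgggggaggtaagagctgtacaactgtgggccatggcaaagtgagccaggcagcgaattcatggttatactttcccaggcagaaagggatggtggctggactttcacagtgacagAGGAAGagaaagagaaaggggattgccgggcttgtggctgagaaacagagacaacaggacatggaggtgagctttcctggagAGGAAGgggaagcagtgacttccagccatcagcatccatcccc
Gp1bb, chr16:18622404-18622653, minus strand: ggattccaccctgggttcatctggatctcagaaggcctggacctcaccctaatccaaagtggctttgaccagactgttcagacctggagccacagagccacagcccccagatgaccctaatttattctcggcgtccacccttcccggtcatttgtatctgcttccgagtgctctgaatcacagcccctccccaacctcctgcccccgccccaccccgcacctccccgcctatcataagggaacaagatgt
In Pf4 the ETS letters lie 9 to 4 bases before the start, in Gp9 16 to 11 bases, and in Itga2b at 125 to 120 and 43 to 38 bases. The RUNX letters of Gp9 lie 171 to 166 bases before the start. Rab27b is named only.

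The first comparison asked which of the 9 genes differ between megakaryocyte-gated and stem-gated cells of the same mouse. Counts were summed over the gated cells of each mouse, so the mouse is the replicate and cells of a mouse are not. Plek, Rab27b, Gp1bb, Itga2b, Pf4 and Cd9 rose in megakaryocyte-gated cells, and Gp9, Treml1 and Selp did not pass. That is 6 of 9 called higher, where 1.27% of the 16805 genes tested were called higher, and the median log2 change of the 9 was 2.61 against −0.15 over all genes tested. Counts come from the 3′ end of transcripts. A CPM is used here to compare 1 gene between samples and not 2 genes with each other.

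Among the receptor genes, Gp1bb encodes the beta chain of glycoprotein Ib, part of the receptor for von Willebrand factor (chromosome 16, bases 18620317 to 18622403, minus strand, GENCODE M21 on GRCm38). In megakaryocyte-gated cells of m4539, m4533, m4528, m605 and m606 it measured 709, 803, 1018, 1250 and 967 CPM, and in stem-gated cells 43.6, 116, 124, 69.8 and 60.7 CPM. All 5 mice were higher in the megakaryocyte gate and the groups did not overlap. The fitted log2 change was 3.65 ± 0.53 (SE), with an adjusted p of 0.0036 by edgeR's quasi-likelihood test. Gp1bb shares its strand with the overlapping genes Sept5 and Gm49601, and how reads were split between them is not known, so its level is uncertain.

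Gp9 encodes glycoprotein IX, which binds the glycoprotein Ib chains in the same receptor (chromosome 6, bases 87778072 to 87779768, plus strand). It measured 121, 249, 108, 197 and 260 CPM in the megakaryocyte gate and 73.1, 60.3, 78.1, 18.9 and 50.7 CPM in the stem gate, in the same order of mice. Every mouse was higher in the megakaryocyte gate, by 1.38 to 10.4 times, and the groups did not overlap. The log2 change of 1.74 ± 0.54 (SE) did not pass in edgeR (adjusted p 0.112).

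Itga2b encodes the alpha chain of the platelet fibrinogen integrin, CD41, which is also a marker of early blood progenitors (chromosome 11, bases 102453297 to 102470122, minus strand). Its level was 190, 346, 406, 96.7 and 631 CPM in the megakaryocyte gate against 29.3, 90.5, 75.2, 17.7 and 72.5 CPM in the stem gate. The lowest megakaryocyte-gated mouse, m605, was also the lowest stem-gated mouse, and within each mouse the difference was 3.82 to 8.70 times. The log2 change was 2.61 ± 0.40 (SE, edgeR adjusted p 0.0047).

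Treml1 encodes a receptor kept in platelet alpha granules and shown on activated platelets (chromosome 17, bases 48359916 to 48367176, plus strand). Megakaryocyte-gated cells measured 9.02, 265, 231, 129 and 287 CPM, and stem-gated cells 8.48, 19.3, 12.4, 1.18 and 41.8 CPM. At day 3 the gates hardly differed, 1.06 times, while at days 10 and 17 they differed by 6.87 to 109 times. The groups thus overlapped through the day 3 mouse. The 109 times is that of m605, where 1 of 12 megakaryocyte-gated and 0 of 16 stem-gated cells had over 10 counts of Treml1. In the day 3 mouse 1 of 15 megakaryocyte-gated cells had it, so by share of cells m605 was like that mouse. The log2 change of 3.52 ± 0.96 (SE) did not pass in edgeR (adjusted p 0.0701), and without the day 3 mouse m4539 it was 4.14 and passed.

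Selp encodes P-selectin, an adhesion protein of the alpha granule membrane that binds white cells (chromosome 1, bases 164115264 to 164150026, plus strand). It measured 160, 123, 70.4, 20.4 and 125 CPM in the megakaryocyte gate and 37.1, 73.4, 12.6, 55.6 and 39.6 CPM in the stem gate. In m605 the order was turned, with the lower value in the megakaryocyte gate, and the groups overlapped. The log2 change was 0.88 ± 0.86 (SE) and did not pass in edgeR (adjusted p 0.676).

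Cd9 encodes a tetraspanin, a membrane organiser found on megakaryocytes, stem cells and other blood cells (chromosome 6, bases 125460266 to 125494791, minus strand). Its level was 446, 811, 970, 601 and 1178 CPM in the megakaryocyte gate and 186, 270, 305, 244 and 244 CPM in the stem gate. The groups did not overlap, and each mouse differed by 2.40 to 4.83 times. The log2 change of 1.67 ± 0.30 (SE, edgeR adjusted p 0.0146) was the smallest of the 6 that passed.

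Pf4, platelet factor 4, is a chemokine packed into alpha granules (chromosome 5, bases 90772435 to 90773383, plus strand). Megakaryocyte-gated cells measured 2355, 1863, 2289, 5799 and 6576 CPM, and stem-gated cells 46.8, 52.6, 344, 36.6 and 383 CPM. Stem-gated cells of m4528 and m606 stood above the other 3 mice, and all 5 mice were higher in the megakaryocyte gate, by 6.66 to 158 times. The log2 change was 4.88 ± 0.76 (SE, edgeR adjusted p 0.0060) and lay between 4.34 and 5.96 over 14 other settings of the analysis.

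Plek encodes pleckstrin, the main target of protein kinase C in platelets (chromosome 11, bases 16971206 to 17052381, minus strand). It measured 314, 873, 561, 505 and 499 CPM in the megakaryocyte gate and 23.5, 121, 142, 44.9 and 23.3 CPM in the stem gate. The groups did not overlap. The log2 change was 3.26 ± 0.37 (SE) and the edgeR adjusted p of 0.00083 was the lowest of the 9.

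Rab27b encodes a small GTPase that guides granules to release sites. It measured 336, 683, 450, 301 and 493 CPM in the megakaryocyte gate and 78.9, 111, 110, 93.4 and 149 CPM in the stem gate. The groups did not overlap and each mouse differed by 3.22 to 6.18 times. The log2 change was 2.11 ± 0.28 (SE, edgeR adjusted p 0.0024). Selp, Cd9, Plek and Rab27b overlap genes on the other strand, and the labels do not state whether counting used the strand.

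**Figure D1:**
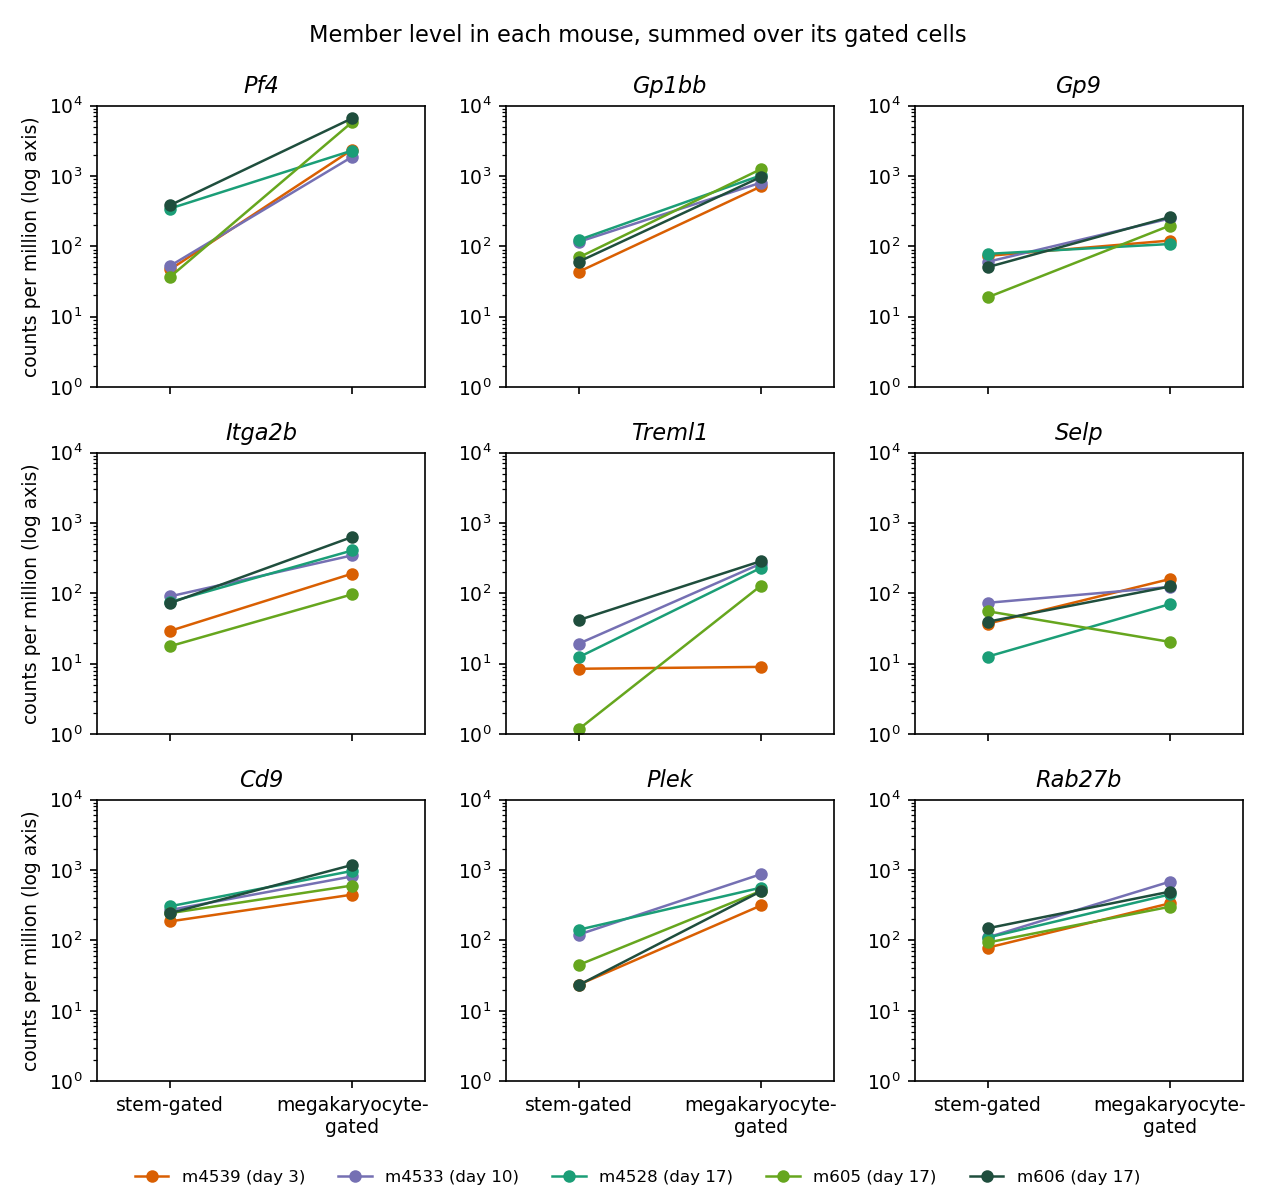
Level of each gene (CPM, log axis) in stem-gated and megakaryocyte-gated cells, with 1 line per mouse and colours for the mice. The megakaryocyte gate is the higher in all 5 mice for 8 of the genes, and in 4 of 5 for Selp, where m605 has 55.6 CPM in the stem gate and 20.4 CPM in the megakaryocyte gate. The Treml1 line of the day 3 mouse is flat, from 8.48 to 9.02 CPM.

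The calls rested on mouse m606 and on both tables together. Without m606, 0 of the 9 genes and 0 of 17043 genes tested passed in edgeR, and 2367 genes had an unadjusted p under 0.05, where all mice gave 2874 of 16805. Either table alone also gave 0 of 9. Cd9 also missed the threshold without m4533 or without m4528, and Itga2b without m4528. The directions of the 9 stayed positive without m606, and DESeq2 on all mice called 8 of 9 higher, all but Selp, where it called 3.16% of genes higher.

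The second set of comparisons asked whether the 9 genes separate the megakaryocyte gate from other lineages. Erythroid-gated sums came from 3 mice (m4528, m605 and m606), monocyte-gated from the same 3, and basophil or mast-gated from 2 (m4528 and m606), all at day 17. Against erythroid-gated cells 8 of 9 rose, where 1.47% of the 16805 genes were called higher, with Treml1 the exception at a log2 change of 4.55 (edgeR adjusted p 0.0544). Against monocyte-gated cells 8 of 9 rose, where 1.42% were called higher, with Selp the exception at 3.50 (edgeR adjusted p 0.121). Against basophil or mast-gated cells 4 of 9 rose, Pf4, Gp1bb, Plek and Rab27b, where 0.256% were called higher. Without m606 these counts were 4, 7 and 0 of 9, and without m4528 the last was also 0. Median log2 changes over all genes were −0.26, −0.19 and 0.10 in these comparisons. The megakaryocyte-gated sums enter every one of them, so they are not independent of each other.

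Rab27b separated most sharply from the monocyte gate, where it measured 0.971, 0.657 and 1.49 CPM at the day 17 mice m4528, m605 and m606 against 450, 301 and 493 CPM in the megakaryocyte gate. The log2 change was 8.59 ± 0.50 (SE, edgeR adjusted p 4.77e-07). No monocyte-gated cell of 100 had over 10 counts of Rab27b, Gp1bb, Itga2b or Treml1, which allows a share of up to 3% for each (3 cells of the total; the exact binomial upper bound is 3.62%).

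Itga2b was also high in basophil or mast-gated cells. Basophil or mast-gated cells measured 226 CPM in m4528 and 130 CPM in m606, above the 75.2 and 72.5 CPM of stem-gated cells in the same mice. It was present in 18 of 33 basophil or mast-gated cells (54.5%, exact 95% interval 36.4 to 71.9%) and in 59 of 94 megakaryocyte-gated cells (62.8%, 52.2 to 72.5%). The log2 change between these gates was 1.30 ± 0.55 (SE) and did not pass in edgeR (adjusted p 0.421). Cd9 also stood high there, at 275 and 365 CPM, and its log2 change of 1.55 did not pass (edgeR adjusted p 0.175).

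The stem gate was set against the erythroid gate to ask which of the genes stem-gated cells hold above a lineage that leaves the platelet path. Selp, Cd9, Plek and Rab27b rose, 4 of 9, where 3.36% of the 16805 genes were called higher. Rab27b was 3.14 ± 0.37 higher on the log2 scale (SE, edgeR adjusted p 0.00029) and Cd9 2.30 ± 0.39 (adjusted p 0.0031). Selp, which did not differ by test between the megakaryocyte and stem gates, was 4.36 ± 1.22 higher in stem-gated than erythroid-gated cells (edgeR adjusted p 0.0453). It measured 12.6, 55.6 and 39.6 CPM against 4.74, 0.581 and 1.06 CPM in m4528, m605 and m606. These stem-gated levels come from few cells, with over 10 counts in 3 of 87, 2 of 16 and 3 of 39. The Selp call was lost in 7 of 14 other settings of the analysis. The other 5, among them Pf4 (1.67, adjusted p 0.244) and Gp1bb (1.65, adjusted p 0.137), did not pass. Without m606, 1 of 9 passed, and without m4528 or m605, 2 of 9.

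**Figure D2:**
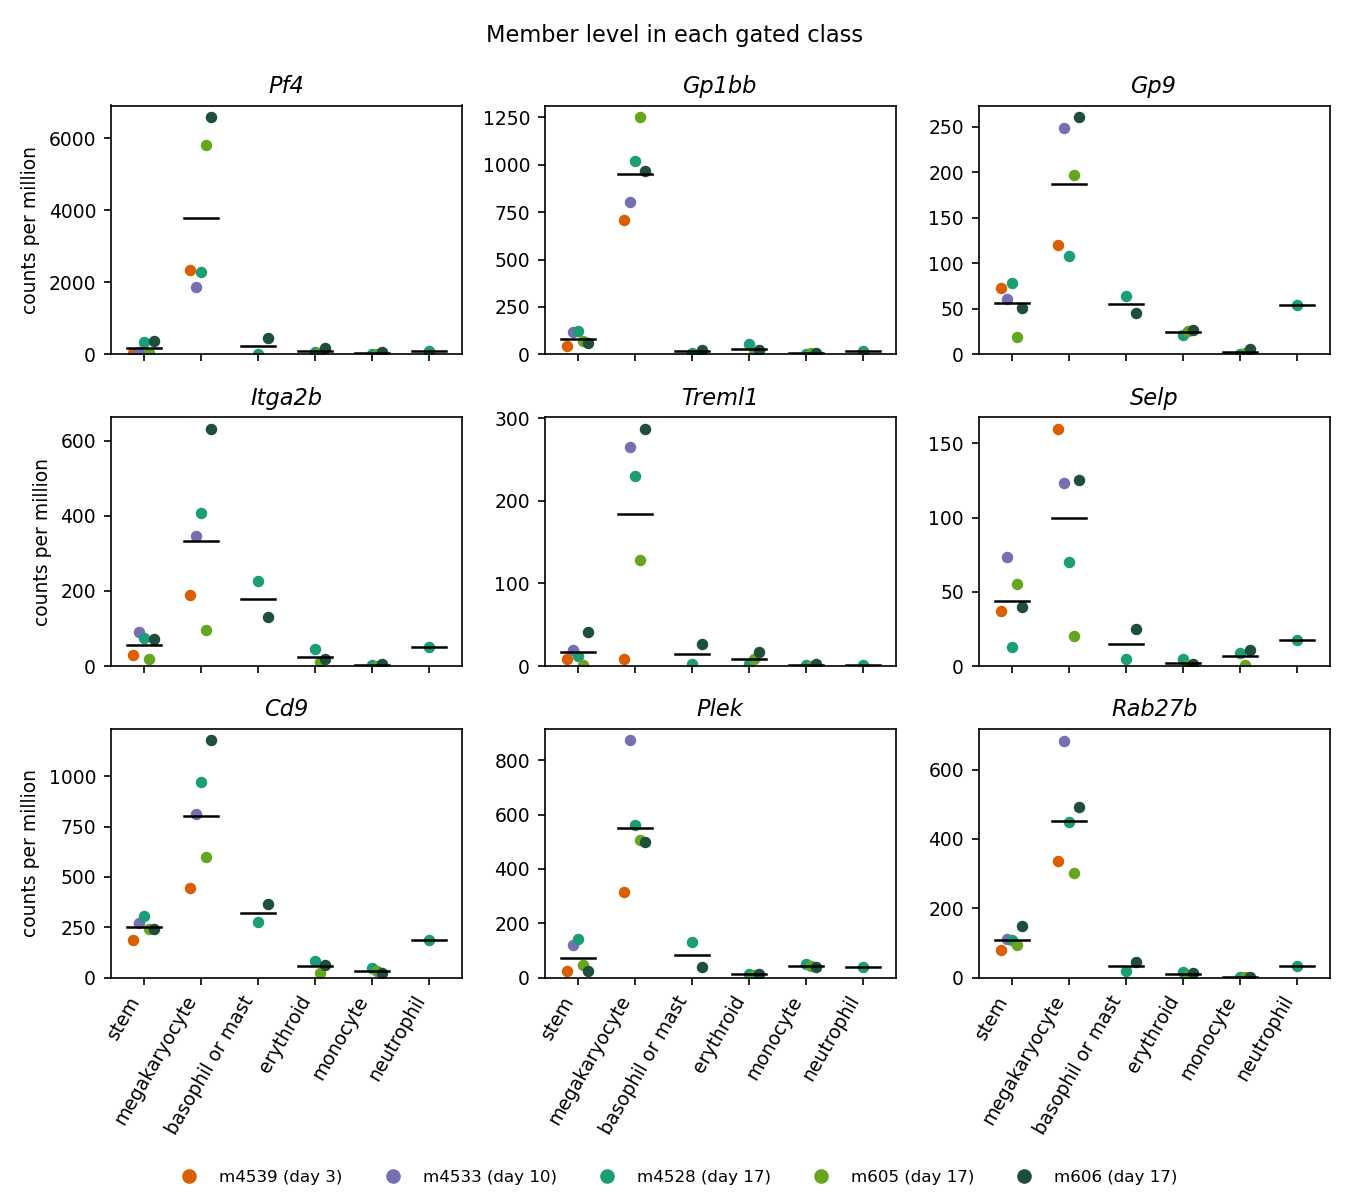
Level of each gene (CPM, linear axes that start at 0 and differ between panels) in 6 gated classes, with 1 point per mouse with at least 10 gated cells and a bar at their mean. The megakaryocyte gate has the highest mean in all 9 panels. Itga2b is next highest in the basophil or mast gate at 178 CPM, and Cd9 at 320 CPM.

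Per cell, the genes differed in how sharply they marked the gate. Over the 5 mice Pf4 was present at over 10 counts in 81 of 94 megakaryocyte-gated cells (86.2%), Cd9 in 80.9%, Gp1bb in 78.7%, Plek in 76.6%, Rab27b in 72.3%, Itga2b in 62.8%, Gp9 in 43.6%, Treml1 in 38.3% and Selp in 25.5%. In the 372 stem-gated cells the shares were 13.7%, 35.8%, 5.65%, 9.14%, 14.5%, 8.06%, 10.5%, 1.88% and 6.18% in the same order. The neutrophil gate served as a background, with 63 cells at a median of 283524 counts, against 200445 in megakaryocyte-gated and 117582 in stem-gated cells.

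Pf4 was found at low counts everywhere. It was present in 25.4% of neutrophil-gated, 23.0% of monocyte-gated and 28.8% of erythroid-gated cells, above the 13.7% of stem-gated cells, but these gates differ in depth and in their mice. Mouse m606 stood out, with 48.9% of erythroid-gated and 48.4% of monocyte-gated cells, while the monocyte shares of m4528 and m605 were 10.3% and 3.70% against 14.9% and 6.25% in their stem-gated cells. Where present, the median cell held 71.8, 59.4 and 55.2 CPM in the neutrophil, monocyte and erythroid gates, 206 CPM in stem-gated cells and 3055 CPM in megakaryocyte-gated cells. In m4528, summed Pf4 measured 344 CPM in stem-gated cells against 91.5, 14.7 and 54.8 CPM in those 3 gates. At over 50 counts the shares were 6.35% in neutrophil-gated, 5.6% in erythroid-gated, 5.11% in stem-gated and 78.7% in megakaryocyte-gated cells. In monocyte-gated cells the share was 0% (0 of 100, which allows up to 3%). With every cell thinned to 20000 counts and at least 2 counts asked for, the shares were 15.9% in neutrophil-gated, 9.09% in monocyte-gated, 20.2% in erythroid-gated, 15.7% in stem-gated and 84.0% in megakaryocyte-gated cells.

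Gp1bb, Treml1 and Rab27b had lower backgrounds than Pf4 in the neutrophil gate, as did Gp9, Itga2b (9.52%) and Selp (4.76%). Gp1bb was present in 4.76% of neutrophil-gated, 7.2% of erythroid-gated and 5.65% of stem-gated cells. Treml1 was present in 0 of 63 neutrophil-gated cells, which allows up to 4.76% (exact upper bound 5.69%). Rab27b was present in 14.5% of stem-gated cells (11.1 to 18.5%) and 12.7% of neutrophil-gated cells, but in 0 of 100 monocyte-gated cells. Gp9 was present in 10.5% of stem-gated cells (7.56 to 14.1%), within the range of the other gates, with 14.4% of erythroid-gated, 12.1% of basophil or mast-gated, 7.94% of neutrophil-gated and 1% of monocyte-gated cells. The median monocyte-gated cell held 224889 counts. Cd9 and Plek reached 52.4% and 25.4% of neutrophil-gated cells, above the stem gate at 35.8% and 9.14%, but these gates differ in depth and in their mice. By level the order was turned in m4528, the mouse with enough neutrophil-gated cells for a sum. There Cd9 measured 189 CPM in neutrophil-gated against 305 CPM in stem-gated cells, and Plek 39.3 against 142 CPM. Intervals are exact binomial at 95%, the limit for a count of 0 is 3 cells of the total, and both cover counting error only.

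The order of appearance was described over 480 cells of the 5 mice that were placed on a path from stem to megakaryocyte. They were 351 of the 372 stem-gated, 71 of the 94 megakaryocyte-gated and 58 ungated cells. Cells of all 3 kinds that met another lineage's minimum of markers were left out. The step of a cell was the number of the 12 megakaryocyte gate markers present, with 226, 152, 52, 25 and 25 cells at 0, 1, 2, 3 and 4 or more markers. Median depth moved along the path too, from 103860 counts at 0 to 269850 at 4 or more. The median number of stem markers was 3 at every step, so by that measure stem markers did not fall along the path. With cells thinned to 20000 counts, all 36 pairs of genes kept the direction given for the order. All 9 genes were present in a higher share of cells at 4 or more markers than at 0.

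Gp1bb had the steepest course. It was present in 1.33% of cells at 0 markers (exact 95% interval 0.275 to 3.83%), 9.21% at 1, 34.6% at 2, 68.0% at 3 and 96.0% at 4 or more. Pf4 went from 10.2% through 17.8%, 44.2% and 76.0% to 100% (25 of 25 cells). Both genes thus went from a minority to nearly every cell. The Pf4 share at 0 markers was 37.2% in m4533 and 1.16% to 7.14% in the other mice. Both pooled shares at 0 markers lay below those of neutrophil-gated cells, which were deeper. With cells thinned to 20000 counts the intervals overlapped. Pf4 was then at 12.7% (8.23 to 18.5%) against 15.9% (7.88 to 27.3%) of neutrophil-gated cells. Gp1bb was at 2.21% (0.605 to 5.56%) against 4.76% (0.993 to 13.3%).

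Cd9 changed least in proportion, from 27.9% through 38.2%, 57.7% and 72.0% to 92.0%. Rab27b went from 11.1% and 15.1% at 0 and 1 markers to 36.5%, 76.0% and 80.0%, and Plek from 6.64% and 11.2% to 36.5%, 56.0% and 88.0%. Itga2b was present in 3.54%, 8.55%, 23.1%, 48.0% and 76.0% of cells at the successive steps. The widest gap between neighbouring steps lay between 2 and 3 markers for Rab27b, and between 3 and 4 or more for Plek and Itga2b.

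Gp9, Treml1 and Selp reached fewer cells. Gp9 went from 6.64% to 64.0% and Treml1 from 0.885% to 52.0%. Selp was present in 5.75% and 4.61% at 0 and 1 markers and in 28.0% at both 3 and 4 or more. By the first step at which a gene's share was past the midpoint between its shares at 0 and at 4 or more markers, 8 of the 9 came at 3 markers and Treml1 at 4 or more. With cells thinned to 20000 counts, Cd9, Pf4, Gp1bb and Plek reached their midpoint at 2 markers and the other 5 at 3, where the last step then holds 3 or more markers.

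**Figure D3:**
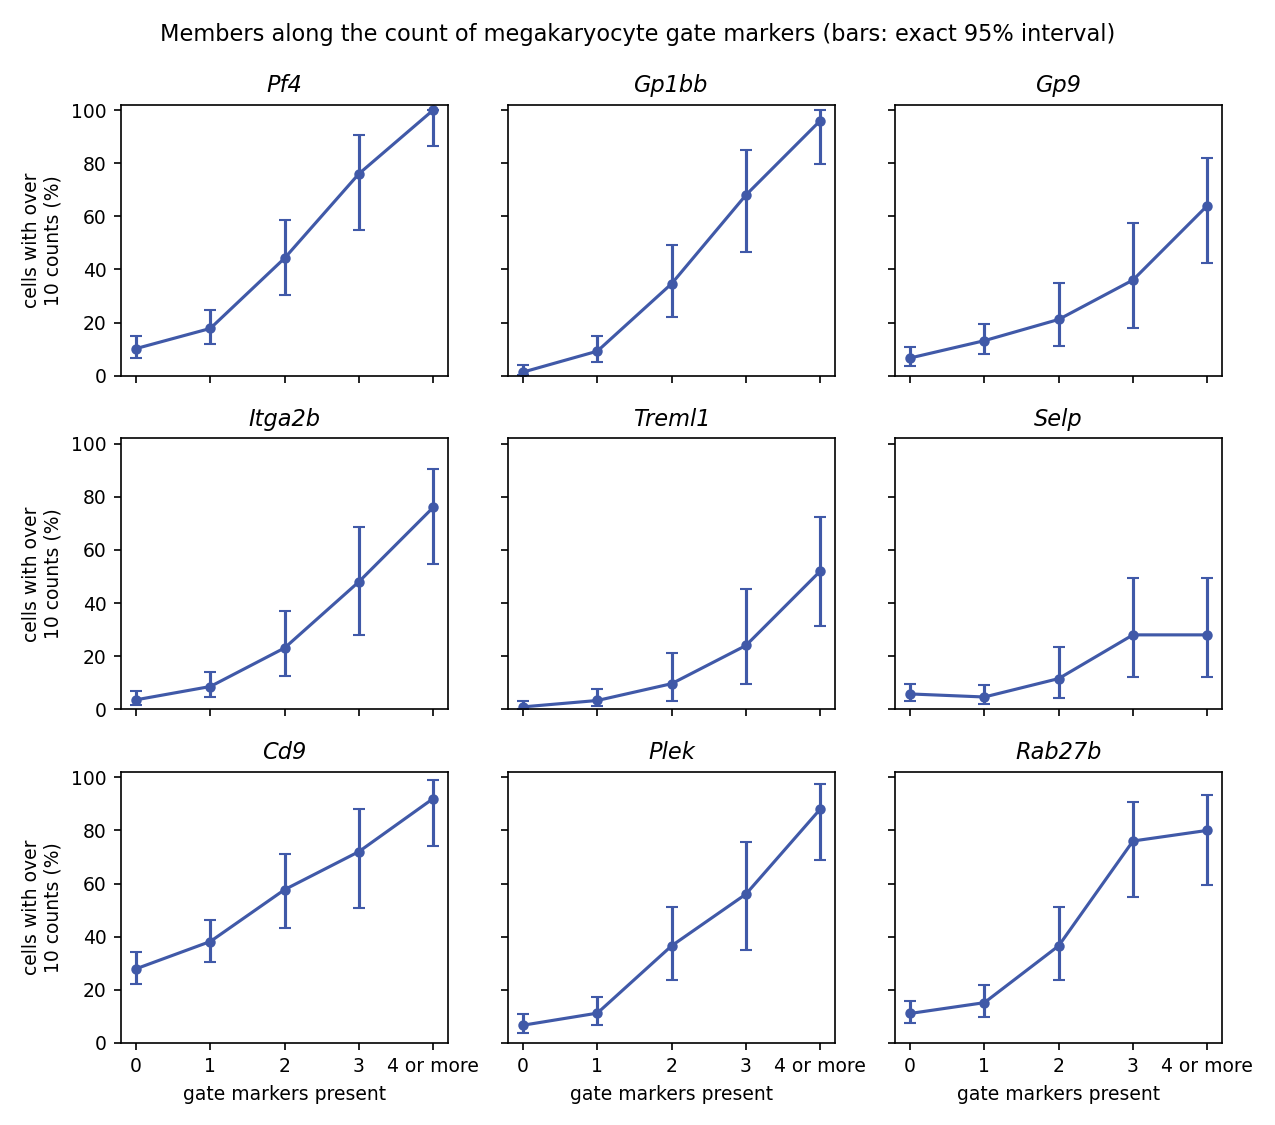
Share of cells with over 10 counts of each gene (percent) against the number of megakaryocyte gate markers present, with exact 95% binomial intervals. The share of Gp1bb goes from 1.33% to 96.0% and that of Pf4 from 10.2% to 100%, while Selp stays at 28.0% at the last 2 steps.

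Pairs of genes were also compared within cells, by counting the cells with 1 gene and not the other. Ranked by how many of the other 8 a gene exceeded in this way, the order was Cd9, Pf4, Rab27b, Plek, Gp1bb, Gp9, Itga2b, Selp and Treml1. This ranking is that of the number of path cells with each gene, 192, 117, 106, 87, 76, 71, 64, 40 and 31, since the gene found in more cells always has more cells without the other. It is therefore no test of which gene comes first. Of the 36 pairs, 23 went the same way in all 5 mice. Cd9 without Treml1 occurred in 164 path cells and Treml1 without Cd9 in 3, and Pf4 without Treml1 in 89 against 3, each in 5 of 5 mice. Of the 31 path cells with Treml1, 90.3% also had Pf4, while 23.9% of the 117 cells with Pf4 had Treml1.

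Neighbours in the order were less clear. Pf4 occurred without Gp1bb in 57 cells and Gp1bb without Pf4 in 16, in that direction in 5 of 5 mice, but at over 50 counts these were 27 and 19 cells, with 4 of 5 mice. Pf4 against Rab27b gave 57 and 46 cells and 3 of 5 mice, Gp1bb against Plek 22 and 33 cells with the mice divided 2 to 2 and 1 tied, and Selp against Treml1 35 and 26 cells and 3 of 5 mice. When any count was taken as presence, Gp1bb moved from the fifth to the second place and Pf4 to the first. At any count Gp1bb was also found in 57.0% of monocyte-gated cells. The order is that of detection at these thresholds, counts per cell differ between the genes, and the order of cells is a ranking by markers, not a time course.

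The number of the 9 genes per cell was then counted. Stem-gated cells held a median of 1 in every mouse, and 155 of 372 (41.7%) held none. Megakaryocyte-gated cells held a median of 4 in m4539, 6.5 in m4533, 6 in m4528, 5 in m605 and 7 in m606. At least 6 of the 9 were present in 58 of 94 megakaryocyte-gated cells (61.7%) and 5 of 372 stem-gated cells (1.34%), and all 9 in 7 megakaryocyte-gated cells. Erythroid-, neutrophil- and monocyte-gated cells held a median of 1, and basophil or mast-gated cells a median of 2.

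The last comparisons concerned days 3, 10 and 17. Megakaryocyte-gated cells made up 7.89% of cells of m4539 at day 3 and 16.8% of m4533 at day 10, and 8.33%, 8.39% and 13.2% of m4528, m605 and m606 at day 17. Stem-gated cells made up 86.3% at day 3, 61.7% at day 10, and 30.2%, 11.2% and 20.6% at day 17. In sums over all kept cells, levels mix cell composition with level per cell, which bulk sums cannot tell apart. Over all kept cells, Pf4 measured 345 CPM at day 3, 574 CPM at day 10, and 307, 544 and 961 CPM at day 17. Plek measured 59.2, 325 and 117, 71.7 and 89.0 CPM in the same order, and Rab27b 113, 259 and 77.0, 31.3 and 84.4 CPM. The day 10 mouse was highest of the 5 for 8 of the 9 genes, all but Pf4, and also had the highest share of megakaryocyte-gated cells.

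Within the megakaryocyte gate the day 3 mouse was lowest of the 5 for Treml1, Gp1bb, Cd9 and Plek, at the values given above, and highest for Selp at 160 CPM. The share of cells with a gene was lowest at day 3 for 6 of the 9 genes outright. Plek was present in 5 of 15 day 3 cells (33.3%) against 94.4% at day 10 and 83.3%, 75.0% and 84.0% at day 17. Pf4 was present in 53.3% against 100% at day 10 and 87.5%, 91.7% and 92.0% at day 17. Treml1 was present in 1 of 15 day 3 cells (6.67%) and in 1 of 12 of m605 at day 17 (8.33%), while m4533, m4528 and m606 had 33.3%, 50% and 64.0%. With cells thinned to 20000 counts the share stayed at 6.67% in m4539 and was 25% in m605, whose median megakaryocyte-gated cell held 112950 counts against 241592 at day 3. Gp1bb did not stand apart in its share, with 66.7% at day 3 and 66.7% in m605.

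The day 3 cells had a median of 3 gate markers, as in m4528 and m605, while m4533 and m606 had 4. They had a median of 3 stem markers against 2.5 in m4533 and 2 in the day 17 mice. Among cells with 2 or 3 gate markers the median number of the 9 genes was 4 in the 13 cells of m4539, 5 in the 7 of m4533 and the 14 of m4528, 5.5 in the 10 of m605 and 7 in the 11 of m606. In these cells Plek was present in 23.1% at day 3 and in 70.0% to 85.7% in the other 4 mice, and Pf4 in 46.2% against 78.6% to 100%. Whether this is the day or the mouse cannot be told apart with 1 mouse at day 3.

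**Figure D4:**
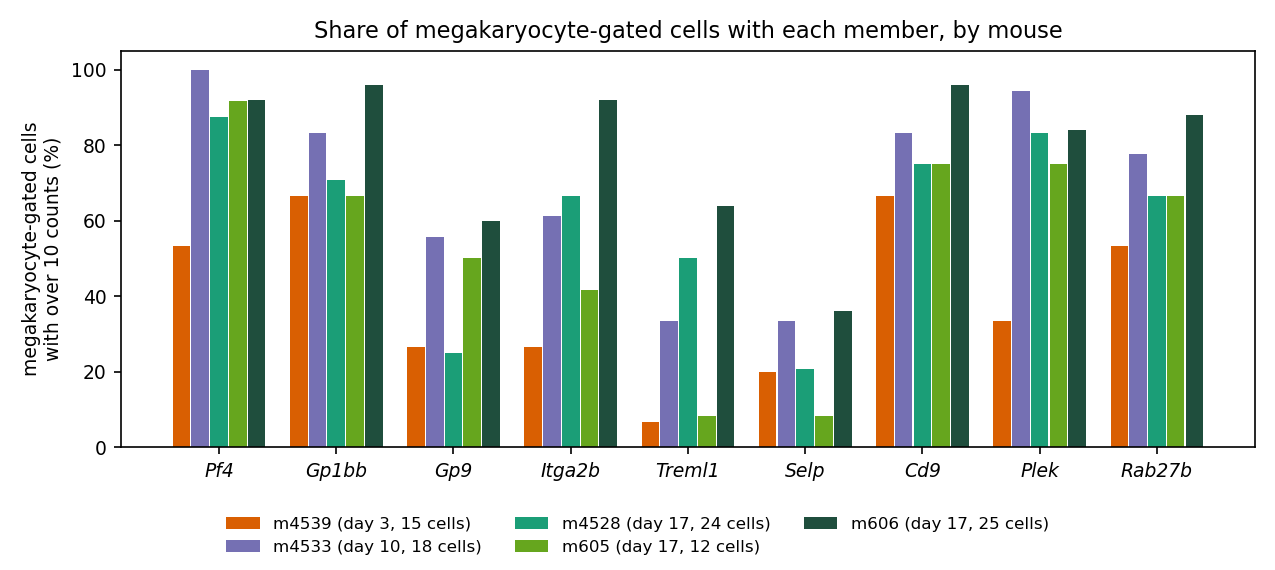
Share of megakaryocyte-gated cells with over 10 counts of each gene (percent, bars from 0), with 1 bar per mouse. The day 3 bars of Plek (33.3%) and Pf4 (53.3%) lie below those of the other 4 mice, while the Gp1bb bar (66.7%) equals that of m605.

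No slope over day passed. In edgeR with the table as a term, 0 of the 9 genes and 0% of genes were called in all kept cells (16740 tested, 1473 at an unadjusted p under 0.05), in stem-gated cells (13452 tested, 259) and in megakaryocyte-gated cells (10949 tested, 406). None of the 9 had an unadjusted p under 0.05 in any of these. DESeq2 called 2.25%, 0.0225% and 0.645% of genes in these fits. With the table as a term, the mice m4539, m4533 and m4528 alone set the slope, because m605 and m606 share a table and a day. Day 17 in these slopes is thus m4528 alone, the mouse that stood apart in sex-linked genes. Day and that difference between the mice cannot be told apart here. In megakaryocyte-gated cells the slope of Treml1 was 4.61 ± 2.31 log2 units per 14 days (SE, edgeR adjusted p 1), and DESeq2 called it, at 4.57. Without m4539 it was −0.53, so it rests on the day 3 mouse. Cd9 had a slope of 1.16 ± 0.57, Pf4 of 0.00 ± 0.39 and Selp of −1.14 ± 1.30, none of which passed in edgeR. The Pf4 slope is that of summed counts and does not describe the median cell. In m4539 the median megakaryocyte-gated cell held 78.6 CPM of Pf4 and the highest 9791 CPM. Median cells held 1614 CPM in m4533 and 1327 CPM in m4528.

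The test of the difference itself, whether the megakaryocyte minus stem contrast moved with day, called 0 of the 9 genes and 0% of 13376 genes in edgeR, with 539 at an unadjusted p under 0.05 and 0.367% called by DESeq2, none of them among the 9. The values nearest to a call were those of Treml1, at 3.67 ± 1.62 log2 units per 14 days (SE, edgeR p 0.0639 unadjusted, adjusted p 1).

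The other genes of the platelet programme were taken from 6 lists and read in the megakaryocyte minus stem contrast, where 1.27% of all genes tested were called higher. Of 16 adhesion and integrin activation genes 3 rose: Rap1b, the small GTPase that switches platelet integrins on (1660 ± 277 against 535 ± 166 CPM, SD, n = 5 mice, edgeR adjusted p 0.00080), Fermt3, the integrin activator kindlin-3 (log2 change 0.85, adjusted p 0.0024), and Rasgrp2, which activates Rap1 (1.68, adjusted p 0.0472). The median of this list was 0.19. Itgb1, an integrin beta chain, measured 158 ± 52.1 against 87.0 ± 18.9 CPM and did not pass.

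Of 10 agonist receptor and thromboxane genes none passed in edgeR, although 8 were positive and the list's median was 1.70. F2r, a thrombin receptor, measured 255 ± 143 against 42.4 ± 32.5 CPM (SD, n = 5 mice, edgeR adjusted p 0.0914), and P2ry1, an ADP receptor, 150 ± 74.4 against 18.5 ± 20.1 CPM (adjusted p 0.134). Tbxa2r, the thromboxane receptor, and Ptger3, a prostaglandin receptor, had log2 changes of 2.71 and 1.75. All 4 were higher in the megakaryocyte gate in 5 of 5 mice.

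Of 10 granule cargo genes 1 rose, Serpine2, a protease inhibitor (293 ± 104 against 41.9 ± 66.1 CPM, SD, n = 5 mice, edgeR adjusted p 0.0147). Vwf, the ligand of the Gp1bb and Gp9 receptor, measured 133 ± 90.6 against 48.8 ± 10.6 CPM, higher in 5 of 5 mice, and did not pass (adjusted p 0.172). Tgfb1 and Clu had log2 changes of 2.76 and 1.11 and were higher in 4 of 5 mice. The list's median was 0.61.

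Of 18 granule building and release genes 1 rose, Slc35d3, a transporter-like protein needed for dense granules (90.7 ± 66.2 against 9.66 ± 8.45 CPM, SD, n = 5 mice, edgeR adjusted p 0.0378). The list's median was −0.46, below the −0.15 of all genes. Hps1, of a lysosome-related organelle complex, had a log2 change of 0.79, Stx11, a membrane fusion protein, 3.49, and Hps6, also of such a complex, −3.76 at 1.05 against 6.38 CPM. None of these 3 passed.

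Of 13 transcription factors and the thrombopoietin receptor 1 rose, Gata1, a master factor of the erythroid and megakaryocyte lines (352 ± 150 against 72.5 ± 55.7 CPM, SD, n = 5 mice, edgeR adjusted p 0.0260). Hhex, a homeobox factor of early progenitors, had a log2 change of −1.15 and was lower in 5 of 5 mice (adjusted p 0.0657). Fli1 and Mef2c, an ETS and a MADS-box factor, had changes of 0.91 and 0.87. Of 12 cytoskeleton genes 1 rose, Tuba4a, an alpha tubulin (509 ± 140 against 277 ± 119 CPM, adjusted p 0.0208). Tuba8 had a log2 change of 2.13 (adjusted p 0.0570), Vcl 1.97 and Tpm1 0.99. No gene of the 6 lists was called lower.

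Genes whose levels followed each of the 9 most closely were ranked over 21 sums, 1 for each mouse and gated class with at least 10 cells, by Pearson's r of log2(CPM + 10) among 16716 genes. The sums of a mouse share its libraries and those of a class its cell type, so r is a description. Pf4 was most like Serpine2 (0.92), Ptger3 (0.86) and Pdcd4 (0.84). Gp1bb was most like Myom1 (0.92), Pde10a (0.91) and Rap1b (0.91), and Plek like Rap1b (0.90), Add3 (0.88) and Pde10a (0.88). The 3 genes nearest to Gp9 included Cttn (0.89) and Nt5c3 (0.86), those nearest to Cd9 included Ppic (0.93) and Dapp1 (0.91), and those nearest to Rab27b included Ica1 (0.91). Itga2b was most like Cttn (0.90) and Rab37 (0.88), Treml1 like Slc35d3 (0.88) and F2r (0.88), and Selp like Trpc6 (0.90) and Ehd3 (0.89).

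Among themselves the 36 pairs of the 9 genes ranged from r = 0.52 for Selp with Treml1 to 0.93 for Rab27b with Gp1bb. Gp1bb and Pf4 stood at 0.89, and Gp9 with Itga2b at 0.87. Gp1bb and Gp9, which encode partners of 1 receptor, stood at 0.83. Selp was least like Treml1, Pf4, Gp9 and Plek, at 0.52 to 0.66.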

How the data were processed

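Single Lin- Tom+ mouse cells on 14 plates were sequenced with a modified Smart-seq2 that reads 3′ ends, per the labels' protocols. Whole-number counts for each barcode and gene came as 2 deposited tables, which the authors had not normalized. They name GRCm38 as the build, per the submitters' processing notes. The sources used here give no aligner, counting tool, strand setting or molecular identifier, so a count is treated as a read. The 22842 genes shared by symbol were used.

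Of 9357 barcodes, 1010 had at least 500 genes and 10000 counts. Cells were sorted into wells and no doublets were called. Markers were present at over 10 counts. A lineage gate needed at least 2 markers (neutrophil 3) and more than any other lineage. The stem gate needed at least 2 stem markers, more than of any lineage and no fewer than of multipotent progenitors. It also allowed at most 2 markers of any lineage, and it took precedence over a lineage gate. These minimums were chosen after seeing the data. The 9 genes and the lists were chosen with earlier results of these data known.

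Counts were summed per mouse and class with at least 10 cells (21 sums, 7 classes, 5 mice, mixed plate left out). edgeR 4.0.16 in R 4.3.3 (quasi-likelihood test, TMM, filterByExpr) tested class contrasts with the mouse as a block, and day slopes per 14 days with the table as a term. P-values were adjusted by Benjamini-Hochberg over all genes tested, and a call is an adjusted p under 0.05. The mice pair the sums, since all classes of a mouse come from the same animal. DESeq2 1.42.0, other scaling, no filter, no block, single mice left out, single tables, other cell filters and 2 other gates were alternatives. Classes by cluster came from scanpy 1.11.5 with the 9 genes left out. The test scripts were tested on simulated data.

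Named are the 9 genes, from each list the up to 4 genes with the lowest adjusted p, and for each of the 9 the 3 genes most alike, of which the text prints up to 3. An item among these is not reported here. Nbeal2, of the granule building list, was not found in both tables. Thinned cells were drawn to 20000 counts, which 2 of 372 stem-gated cells did not reach.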

Additional observations from a re-analysis of the deposited data

How the results depend on the processing

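Of the 9 genes, the numbers called when single mice were left out ranged from 0 to 7 for megakaryocyte against stem (6 with all mice), 4 to 8 against erythroid (8), 7 to 8 against monocyte (8), 0 to 3 against basophil or mast (4), and 1 to 3 for stem against erythroid (4). The lowest of each came without m606, and the 0 against basophil or mast also without m4528. In the same order of comparisons, the first table alone called 0, 0, 0, 0 and 0, and the second table alone 0, 3, 5, 0 and 0. Each table alone holds fewer mice. With no replicate block, 2 passed against basophil or mast, where the block gave 4. The block moved no other count of the 9 by over 1.5 times. Over all genes the counts were 94 and 433 (megakaryocyte against stem), 273 and 474 (erythroid) and 737 and 1215 (stem against erythroid) without and with it. DESeq2 called 1839, 1368, 1551, 998 and 2719 genes where edgeR called 433, 474, 696, 134 and 1215. The stricter gate called 412 of all genes against monocyte.

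Only Selp turned direction in the megakaryocyte minus stem contrast, at −0.0617 with the second table alone. In megakaryocyte-gated cells the day slope of Pf4 was 1.41 and that of Gp9 0.61 with no table term, and Pf4 was 0.0837 with the stricter gate. With single mice left out, slopes ranged from −0.63 to 0.46 for Pf4, −2.54 to 2.13 for Gp9, −0.53 to 9.79 for Treml1, −1.41 to 2.998 for Plek and −1.34 to 2.09 for Rab27b. DESeq2 called 1 of 9 slopes, Treml1. The cause of these changes was not tested.

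RLE scaling moved the all-gene median from −0.26 to −0.05 (megakaryocyte against erythroid), −0.19 to −0.05 (monocyte), −0.07 to 0.18 (stem against erythroid), and 0.03 to −0.09 and 0.03 to −0.07 (day slope in all and in megakaryocyte-gated cells). Genes called higher and lower went from 247 and 227 to 301 and 162 against erythroid, and from 565 and 650 to 659 and 417 for stem against erythroid. The direction of the 9 was the same under RLE in the class comparisons. The pair order kept 30 to 36 of 36 directions over 10 settings. The basophil or mast comparison had no value by cluster or stricter gate, since fewer than 10 cells per mouse remained. Alternatives for the change of the class difference with day were added after the data had been seen and gave 0 of 9 throughout.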

Other observations

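The plate that mixes m605 and m606 entered no test. Its 15 megakaryocyte-gated cells measured 8079 CPM of Pf4 and its 17 stem-gated cells 80.8 CPM. In m4528, plate 8, which held no megakaryocyte-gated cell, measured 0.476 CPM of Gp1bb over all its 51 cells, against 65.7, 144 and 264 CPM on the other 3 plates of that mouse.

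Limits: days 3 and 10 rest on 1 mouse each, and the tables divide the mice, which also differ in depth. Calls between the megakaryocyte and stem gates depended on m606. At 12 to 25 megakaryocyte-gated cells per mouse, a share of cells has a wide interval: Treml1 at 1 of 15 cells spans 0.169 to 31.9%. Genes with few counts per cell, such as Selp, can be missed in cells that hold them.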
